A study of Mus musculus with 18 samples.

Results

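The 10 genes described here encode parts of the protein kinase A (PKA) holoenzyme and the proteins that inhibit or anchor it: the catalytic subunit genes Prkaca and Prkacb, the regulatory subunit genes Prkar1a, Prkar1b, Prkar2a and Prkar2b, the inhibitor genes Pkia and Pkig, and the anchor genes Akap1 and Akap12. Their rows were found by symbol, and all 10 had a row in every file, among 45151 symbols present in all 18 libraries. The study sequenced RNA from 3 fat depots of male C57BL/6J mice (wild type, 16 weeks of age, regular chow), with 6 libraries each from inguinal white fat (iWAT), epididymal white fat (eWAT) and brown fat (BAT). The iWAT and eWAT libraries were made from adipocytes that had been released with collagenase, and the BAT libraries from whole tissue, although the labels name BAT adipocytes. Depot and preparation therefore cannot be told apart in any comparison with BAT. Libraries are named here by depot and by the number in their title. The labels do not say that equal numbers mark the same mouse, nor that each library came from its own mouse, so the p-values measure the spread between these libraries.

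Depth was similar in the 3 groups, with 22929576 to 32141048 reads in iWAT, 26607733 to 34048018 in eWAT and 26706786 to 34512470 in BAT. Levels are given as RPKM, read counts normalised to the length of a row and to the size of the library. The labelled depots held their defining transcripts: Ucp1, the uncoupling protein of brown fat, lay between 969 and 1509 RPKM in BAT and at no more than 5.76 RPKM in either white depot, and Adipoq, the adipocyte hormone adiponectin, lay between 258 and 394 RPKM in BAT and above 867 RPKM in every white library. The 3 libraries BAT 12, eWAT 15 and eWAT 14 stood apart by transcripts of other cell types. The summed RPKM of 5 skeletal muscle markers was 1340 in BAT 12 against 0.550 to 119 in the other BAT libraries. That of 9 macrophage markers was 2425 in eWAT 15 against 176 to 571 in the other eWAT libraries. That of 5 epididymis markers was 76.2 in eWAT 14 and 71.0 in eWAT 15, against 0 to 3.64 in the other eWAT libraries and 0 in all iWAT libraries. In bulk samples like these, fewer cells of a type and less RNA per cell cannot be told apart.

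PKA is the main receptor for cAMP in fat cells. In the inactive holoenzyme, regulatory subunits hold catalytic subunits in check, and cAMP made downstream of Gs-coupled receptors such as the β-adrenergic receptors frees the catalytic subunits, which then phosphorylate hormone-sensitive lipase and perilipin and so drive lipolysis in white fat and thermogenesis in brown fat. Type I holoenzymes contain the products of Prkar1a or Prkar1b and type II holoenzymes those of Prkar2a or Prkar2b. Small heat-stable inhibitor proteins bind free catalytic subunits, and A-kinase anchoring proteins (AKAPs) tether the regulatory subunits at particular sites in the cell.

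The first question was which of the 10 genes differed between white adipocytes and brown fat. Against BAT, iWAT had lower transcript levels of Prkaca, Prkar1b, Prkar2b and Akap1 and higher levels of Prkar2a, Pkig and Akap12. These 7 of the 10 genes passed an adjusted p of 0.05 in edgeR's quasi-likelihood test, 3 of them higher in iWAT and 4 higher in BAT. Of all 19046 symbols tested, 67.8% passed, with 34.2% higher in iWAT and 33.6% higher in BAT, so the share of PKA genes that differed was close to that of genes in general. The median log2 difference of the 10 genes was -0.0048, against 0.01 over all symbols. The sizes were uneven: in absolute value the log2 differences of Akap1 and Akap12 were over 2, whereas those of the 6 subunit genes stayed under 1.

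**Figure D1:**
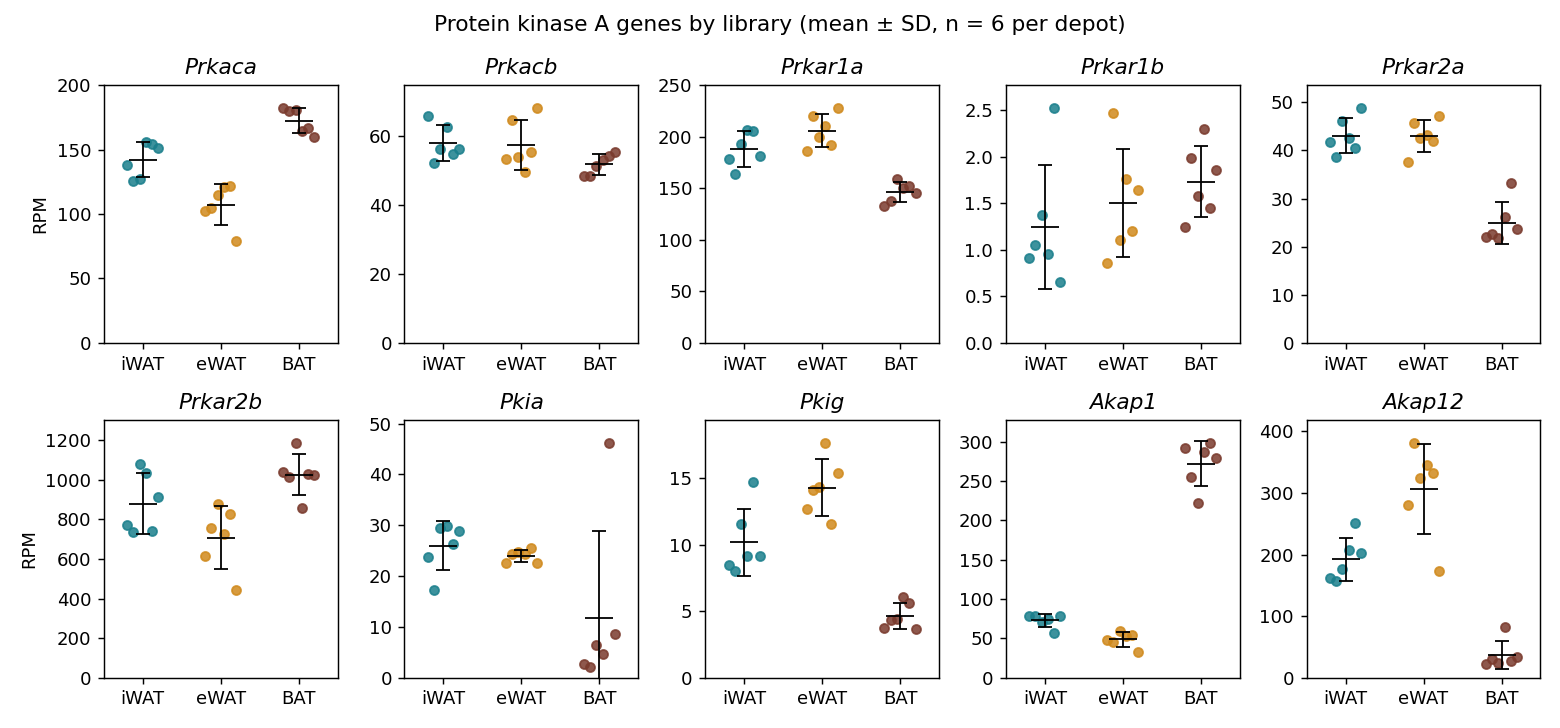
RPM (reads normalised to library size, vertical axis, from 0) of the 10 genes in each of the 18 libraries, grouped by depot (horizontal axis). Points are libraries, bars are mean ± SD (n = 6), and the lower bar of Pkia in BAT is cut at 0. Akap1 in BAT lies between 222 and 298 RPM, above every white library, and Akap12 shows the opposite order, with BAT at 22.6 to 81.6.

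**Figure D2:**
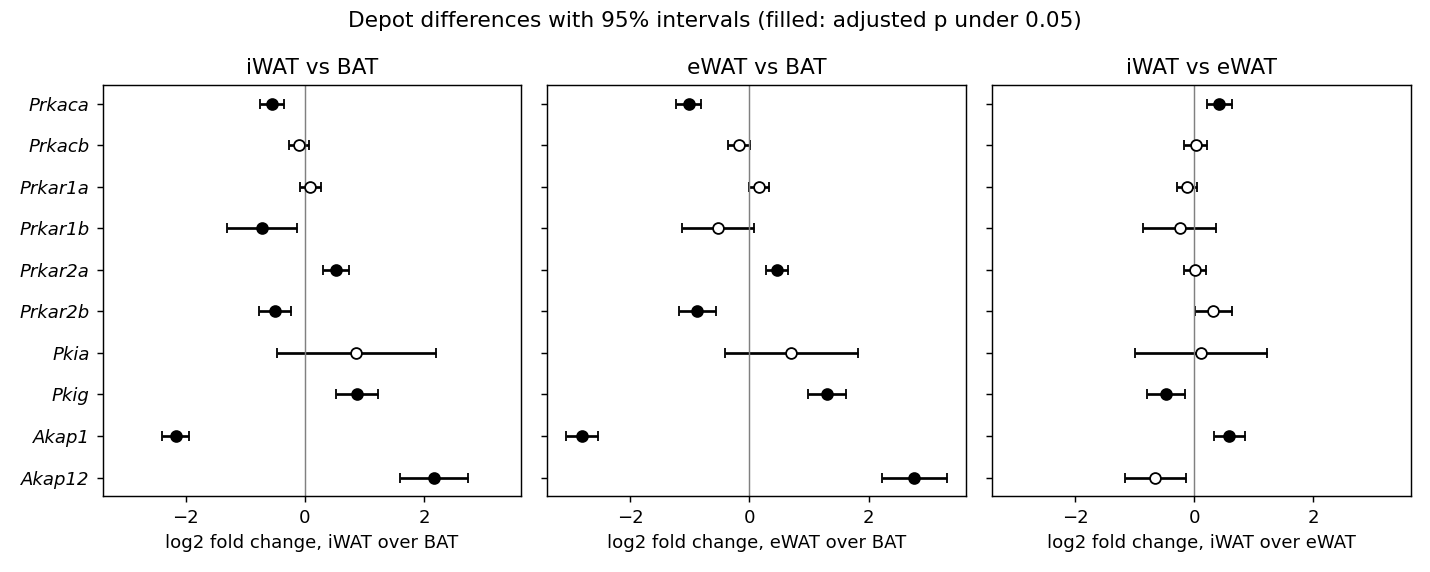
Log2 fold change (horizontal axis) of each gene (vertical axis) in the 3 depot comparisons, with 95% intervals from edgeR. Filled points passed an adjusted p of 0.05, namely 7 genes for iWAT against BAT, 6 for eWAT against BAT and 3 for iWAT against eWAT. Akap1 and Akap12 lie farthest from 0, at -2.17 and 2.17 for iWAT against BAT.

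Prkaca (chr8:86496877-86520344, plus strand, mm9), which encodes the main catalytic subunit of most tissues, was lower in iWAT than in BAT. Its lowest, median and highest levels were 54.2, 62.6 and 67.4 RPKM in iWAT and 69.1, 74.9 and 78.6 RPKM in BAT. The groups did not overlap. The log2 difference was -0.55 ± 0.09 (SE, n = 6 against 6, edgeR adjusted p = 1.41e-04), or 1.46-fold higher in BAT, and -0.28 without TMM factors (adjusted p = 0.00627). Prkacb (chr3:146392543-146475954, minus strand), the gene of the second catalytic subunit, lay at 6.07, 6.53 and 7.63 RPKM in iWAT and at 5.62, 6.06 and 6.42 RPKM in BAT. These ranges overlapped. The log2 difference of -0.10 had a 95% interval from -0.27 to 0.07 and did not pass the test (adjusted p = 0.257), and its sign depended on the scaling (0.16 without TMM factors). Prkaca made up 90.1% ± 0.97 of the summed catalytic RPKM in iWAT and 92.5% ± 0.77 in BAT (SD, n = 6). The Prkacb to Prkaca ratio was accordingly higher in iWAT, by 0.44 on the log2 scale, with no overlap between groups (exact two-sided permutation test, p = 0.00216, the smallest value that 6 against 6 libraries can give, adjusted p = 0.00325 over 24 ratio tests). The size of these shares depends on the row. RPKM in iWAT and BAT uses merged gene rows, of 8601 bases for Prkacb and 2315 for Prkaca. Their most-read eWAT transcripts have 4328 and 2293.

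Prkacb has several alternative first exons, and the eWAT files, which list transcripts separately, show which of them were used. The row that begins at the distal start site gained 39 to 78 reads in each eWAT library over a row that lacks any of these first exons. The row that begins at the next start site, inside the gene, gained 2 to 12 reads in 5 libraries and 39 in eWAT 15, the library with the most macrophage transcripts, and the next alternative gained 0 to 3. Reads from the distal first exon were thus more numerous in all 6 libraries, by the least in eWAT 15 (49 against 39). The 200 bases before the RefSeq start sites of both leading transcripts are shown because the sites differ in sequence character. The distal window is 71.5% G and C, and the internal window 38.5%. In these and the other windows below, read 5′ to 3′ on the gene's own strand from the mm9 genome, capitals mark matches on either strand to the cAMP response element TGACGTCA, to its core TGACG (which the full element contains on both strands), to the GC box GGGCGG, to CCAAT and to the E-box CACGTG. The nuclear receptor hexamer AGGTCA was searched too and had no match in the windows printed here.
Prkacb distal start, chr3:146475911-146476110, minus strand: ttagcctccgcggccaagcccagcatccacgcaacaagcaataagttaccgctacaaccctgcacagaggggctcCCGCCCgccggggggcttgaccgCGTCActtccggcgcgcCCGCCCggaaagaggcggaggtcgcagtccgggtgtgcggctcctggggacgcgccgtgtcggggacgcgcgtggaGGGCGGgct
Prkacb internal start, chr3:146444381-146444580, minus strand: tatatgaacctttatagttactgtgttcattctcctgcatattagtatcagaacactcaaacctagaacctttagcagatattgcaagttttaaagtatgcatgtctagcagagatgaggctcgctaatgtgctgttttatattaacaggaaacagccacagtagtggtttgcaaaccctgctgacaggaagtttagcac
The distal window holds 3 GC boxes and 1 core match, and the internal window none of the motifs. Over all 22717 RefSeq windows of this length, 42.6% held a GC box and 18.4% the core.

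Among the regulatory subunits, Prkar2b (chr12:32643341-32746161, minus strand) had the highest level of all 10 genes in each depot. It encodes RIIβ, the regulatory subunit typical of adipocytes and brain. Its levels were 195, 224 and 287 RPKM (lowest, median, highest) in iWAT and 228, 273 and 315 RPKM in BAT. The ranges overlapped in part, with the upper iWAT libraries inside the BAT range. The log2 difference was -0.50 ± 0.13 (edgeR adjusted p = 0.00297), so the gene was lower in iWAT under the main scaling, but the call was lost without TMM factors (-0.22, adjusted p = 0.109). It was also lost with limma on RPKM (-0.23 at pseudocounts of 0.1 and 1, adjusted p = 0.0883 and 0.0876). Prkar2a (chr9:108594474-108652767, plus strand), which encodes the RIIα subunit found in most tissues, moved the opposite way. It lay at 5.92, 6.45 and 7.45 RPKM in iWAT and at 3.34, 3.53 and 5.09 RPKM in BAT, without overlap. The difference was 0.52 ± 0.10 on the log2 scale (adjusted p = 3.92e-04). The highest BAT value was that of BAT 12, the library with skeletal muscle transcripts.

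Prkar1a (chr11:109510719-109530970, plus strand), the gene of the RIα subunit, lay at 31.8, 36.4 and 40.2 RPKM in iWAT and at 25.8, 28.7 and 30.9 RPKM in BAT. The RPKM ranges did not overlap, yet the TMM-scaled difference was only 0.09 (95% interval -0.09 to 0.28, adjusted p = 0.334). Without TMM factors it was 0.36 (adjusted p = 9.78e-04). That scaling also moved the median log2 difference of all symbols from 0.01 to 0.28, so Prkar1a stood near that shift under either scaling. With limma on RPKM the Prkar1a difference was 0.36 and 0.35 at pseudocounts of 0.1 and 1 (adjusted p = 6.05e-04 and 6.18e-04). Prkar1b (chr5:139493258-139626647, minus strand), the RIβ gene best known from neurons, was nearly silent, at 0.136, 0.208 and 0.522 RPKM in iWAT and 0.258, 0.355 and 0.475 RPKM in BAT, from 17 to 80 reads per library. Its groups overlapped. The log2 difference of -0.72 ± 0.28 passed narrowly (adjusted p = 0.0328). The call was lost without iWAT 7, 11, 12, 13 or 15 or without BAT 7 or 11, each taken alone, at adjusted p from 0.0536 to 0.0710, and also without TMM factors (-0.46, adjusted p = 0.164), without a filter (-0.66, adjusted p = 0.0650) and with limma. Without iWAT 14, which had the highest iWAT level, the difference was -1.05 and passed.

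The windows before the RefSeq starts of Prkar2b and Prkar1a are shown because these genes supply most of the regulatory transcripts and differ in their motifs.
Prkar2b, chr12:32746145-32746344, minus strand: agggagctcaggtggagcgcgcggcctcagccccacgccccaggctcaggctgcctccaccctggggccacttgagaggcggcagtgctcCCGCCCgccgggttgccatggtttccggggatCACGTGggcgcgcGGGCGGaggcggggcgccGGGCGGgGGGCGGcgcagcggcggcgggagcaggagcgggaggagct
Prkar1a, chr11:109512063-109512262, plus strand: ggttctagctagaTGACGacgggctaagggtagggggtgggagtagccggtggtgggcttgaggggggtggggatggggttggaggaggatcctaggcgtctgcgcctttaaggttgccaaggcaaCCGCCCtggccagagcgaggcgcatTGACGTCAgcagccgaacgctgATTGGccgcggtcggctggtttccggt
The Prkar2b window is 78.5% G and C and holds 4 GC boxes and 1 E-box. The Prkar1a window is the only one among the windows of the 10 genes with a full cAMP response element, a sequence found in 2.0% of all RefSeq windows, and holds a further core match, a GC box and a CCAAT box. Prkaca, whose window is not printed, has 2 core matches, 3 CCAAT boxes, 2 GC boxes and 1 E-box. CCAAT occurred in 30.5% of all windows, the E-box in 5.9% and AGGTCA in 9.6%.

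By share of the summed regulatory RPKM, Prkar2b supplied 84.1% ± 1.99 in iWAT and 89.3% ± 1.19 in BAT (SD, n = 6). Prkar1a supplied 13.4% ± 1.78 and 9.36% ± 0.95, Prkar2a 2.40% ± 0.26 and 1.26% ± 0.27, and Prkar1b at most 0.214% in any of these 12 libraries. The share of Prkar2b was thus larger in BAT, and those of Prkar1a and Prkar2a smaller, without overlap of the Prkar2b ranges. The size of these shares depends on row length too. The merged rows of Prkar1a, Prkar2a and Prkar2b have 5144, 6542 and 3762 bases, and their most-read eWAT transcripts 3323, 4041 and 3358. The ratio of Prkar2b to Prkar2a ranged from 31.8 to 42.1 in iWAT and from 53.5 to 94.2 in BAT, a log2 difference of -1.03, and the ratio of type I to type II genes ranged from 0.129 to 0.199 in iWAT and from 0.0929 to 0.127 in BAT, a log2 difference of 0.57. Neither ratio overlapped between depots (exact permutation p = 0.00216, adjusted p = 0.00325 for each). These ratios do not depend on the scaling between libraries. The ratio of summed catalytic to summed regulatory RPKM was 0.185 to 0.299 in iWAT and 0.241 to 0.294 in BAT. These ranges overlapped and the log2 difference of -0.10 did not pass (exact permutation p = 0.435).

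**Figure D3:**
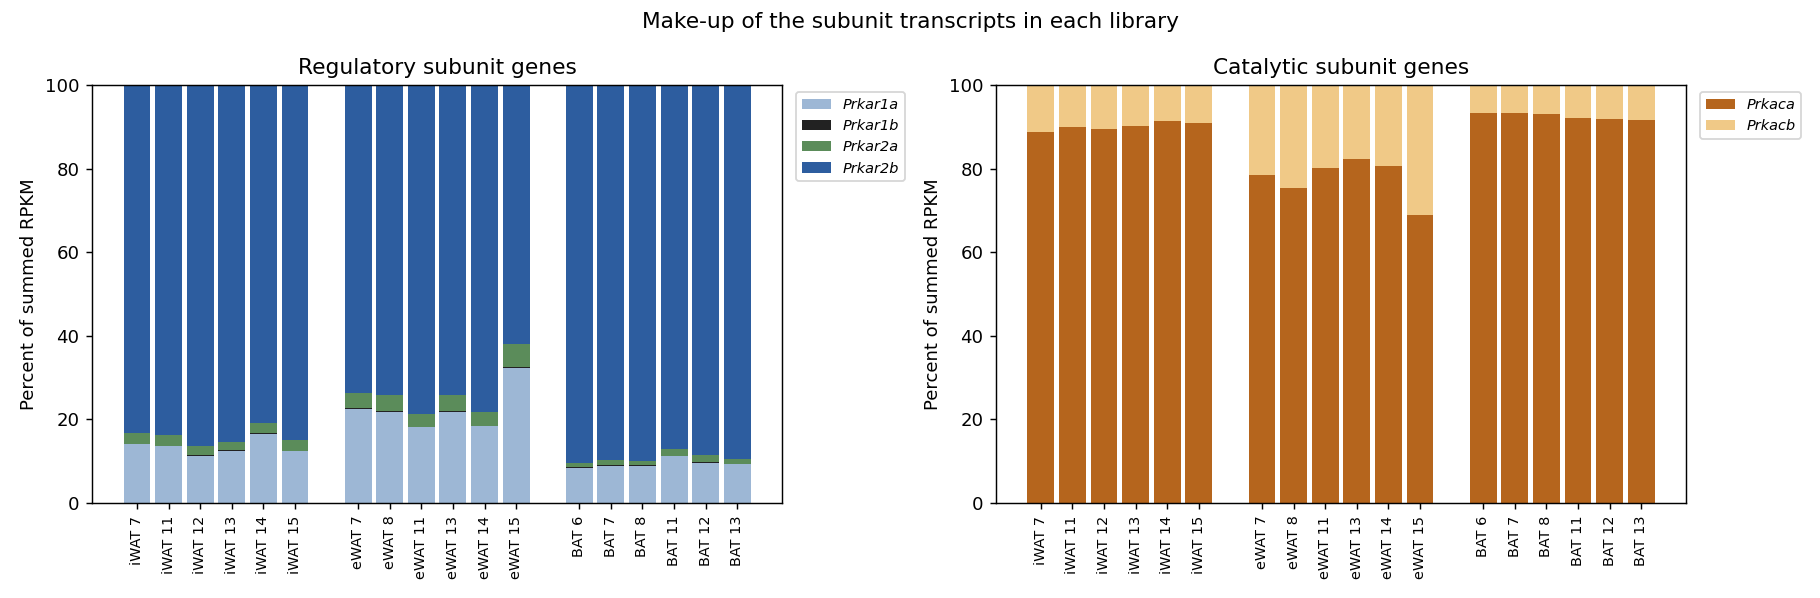
Share of the summed RPKM (vertical axis, percent) held by each regulatory gene (left) and each catalytic gene (right) in every library (horizontal axis). Prkar2b holds 80.8% to 86.5% in iWAT, 62.0% to 78.6% in eWAT and 87.2% to 90.4% in BAT; shares in eWAT use transcript lengths and those of the other depots merged gene lengths.

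Both inhibitor genes had lower levels in most BAT libraries than in iWAT. Pkig (chr2:163484122-163551894, plus strand), which encodes the broadly expressed inhibitor PKIγ, lay at 2.01, 2.29 and 3.70 RPKM in iWAT and at 0.921, 1.09 and 1.53 RPKM in BAT. The groups did not overlap. The log2 difference was 0.87 ± 0.16 (edgeR adjusted p = 2.94e-04), or 1.83-fold higher in iWAT. Pkia (chr3:7366604-7445366, plus strand), the gene of the inhibitor PKIα known from muscle and brain, lay at 4.64, 7.39 and 7.98 RPKM in iWAT. In BAT it lay between 0.538 and 2.29 RPKM in 5 libraries and at 12.3 RPKM in BAT 12. This library held 1433 Pkia reads, against 69 to 254 in the others, and also the highest sum of skeletal muscle markers. Over all libraries the log2 difference of 0.86 ± 0.62 did not pass in edgeR (adjusted p = 0.230). It passed with limma on RPKM (1.91 and 1.39 at pseudocounts of 0.1 and 1, adjusted p = 0.00638 and 0.00852). Without BAT 12 the edgeR difference was 2.12 and passed (adjusted p = 6.22e-05). Then 8 of the 10 genes passed, and 11917 of 18491 symbols. Among the other 5 BAT libraries, Pkia was highest in BAT 13 (2.29 RPKM), where the muscle sum was 1.15, and BAT 8, with a muscle sum of 119, had 1.72 RPKM. The part of muscle in the BAT 12 value was not tested.

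**Figure D4:**
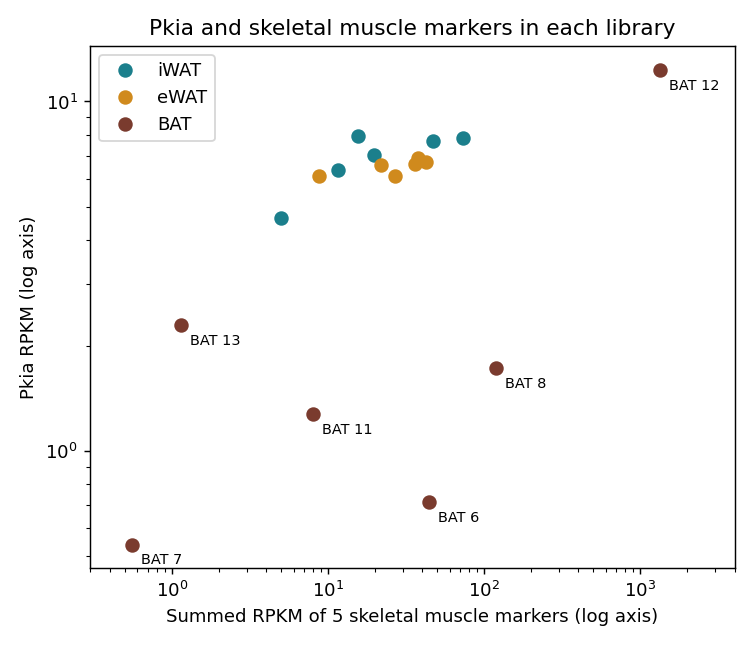
Pkia RPKM (vertical log axis) against the summed RPKM of 5 skeletal muscle markers (horizontal log axis) in each library. BAT 12 lies at 12.3 RPKM and a marker sum of 1340; the other BAT libraries lie at or below 2.29 RPKM, under all white libraries, at marker sums from 0.550 to 119. RPKM in eWAT uses transcript lengths and that of the other depots merged gene lengths.

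The summed inhibitor RPKM was 0.110 to 0.175 of the summed catalytic RPKM in iWAT and 0.0196 to 0.175 in BAT, where BAT 12 gave the highest value. The log2 ratio was higher in iWAT by 1.82 (exact permutation p = 0.0152, adjusted p = 0.0191), and by 2.26 without BAT 12 (adjusted p = 0.00611). Within the inhibitors, Pkia was the more abundant per length of the merged gene row in every iWAT library, at 1.90 to 3.48 times Pkig. The merged Pkig row has 3993 bases, against 1066 for its most-read eWAT transcript. For Pkia these lengths are 3741 and 3683, so the size and order of this ratio depend on the row length used. In BAT the ratio ran from 0.502 to 8.74, and its difference from iWAT did not pass over all libraries (log2 difference 0.88, exact permutation p = 0.182), but did without BAT 12 (1.39, adjusted p = 0.0156).

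The anchor genes differed most, and in opposite directions. Akap1 (chr11:88692106-88725900, minus strand) encodes an anchor of the outer mitochondrial membrane that binds both types of regulatory subunit. Its levels were 12.8, 17.4 and 17.9 RPKM in iWAT and 50.5, 64.4 and 67.8 RPKM in BAT. The lowest BAT library lay well above the highest iWAT library. The log2 difference was -2.17 ± 0.11 (edgeR adjusted p = 5.58e-10), or 4.49-fold higher in BAT, and -1.90 without TMM factors (adjusted p = 1.57e-09). Akap12 (chr10:5987070-6080229, minus strand) encodes gravin, a large scaffold under the plasma membrane that also binds protein kinase C and β-adrenergic receptors. It lay at 20.7, 25.0 and 33.2 RPKM in iWAT and at 2.98, 3.79 and 10.8 RPKM in BAT. There was no overlap, although BAT 11, at 10.8 RPKM, stood above the other BAT libraries, which reached 4.50. The log2 difference was 2.17 ± 0.26 (adjusted p = 5.90e-06), or 4.49-fold higher in iWAT, and 2.49 without BAT 11. Without TMM factors it was 2.40 (adjusted p = 5.29e-06), so the equal size of the 2 anchor differences held only under the main scaling. Between these genes the log2 ratio of Akap12 to Akap1 differed by 4.44 (exact permutation p = 0.00216, adjusted p = 0.00325): Akap12 exceeded Akap1 in all 6 iWAT libraries, by 1.17 to 2.58 times, and reached only 0.0451 to 0.165 of it in BAT.

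Transcripts of other cell types moved with the depot as well. The RPKM sums below use single transcript rows in eWAT and merged gene rows in iWAT and BAT. The size of an eWAT sum against those of the other depots therefore also reflects row length. The summed RPKM of 9 macrophage markers was 36.6 to 213 in iWAT, 176 to 2425 in eWAT and 32.2 to 69.8 in BAT. Of these markers, 8 were higher in eWAT than in BAT and 3 higher in iWAT than in BAT, and none was lower. The summed RPKM of 7 fibroblast markers was 534 to 784 in iWAT, 221 to 325 in eWAT and 48.2 to 67.3 in BAT, but Dpt made up most of the iWAT sum (614 ± 129 RPKM, SD); 3 of the 7 were higher in iWAT than in BAT and 4 were higher in BAT, with a median log2 difference of -1.39. The sum of 7 endothelial markers was 55.0 to 309 in iWAT, 143 to 324 in eWAT and 49.0 to 119 in BAT, while 1 of the 7 (Cldn5) was higher in iWAT than in BAT, 3 were higher in BAT and 3 did not pass, with a median log2 difference of -0.61. Tested on counts between eWAT and BAT, 1 endothelial marker was higher in eWAT and 6 did not pass. Of the fibroblast markers, 3 were higher in eWAT, 3 were higher in BAT and 1 did not pass. iWAT 14, with the highest endothelial sum in its depot, had the highest Akap12 and the lowest Akap1 of the iWAT libraries. BAT 11, with the highest Akap12 in BAT, had the highest endothelial sum there (119). The part of these cells in the Akap12 difference was not tested. Brown fat markers summed to 3019 to 3773 RPKM in BAT and to at most 127 in the white depots. The sum of 7 neural markers was 3.34 to 8.21 in iWAT, 1.51 to 4.21 in eWAT and 21.9 to 44.5 in BAT. Of the 4 neural markers tested, 3 were higher in BAT than in iWAT and 1 did not pass. Of 6 markers of mural cells, 4 were higher in BAT than in iWAT, 1 was higher in iWAT and 1 did not pass. The part of neural transcripts in the Prkar1b difference was not tested.

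**Figure D5:**
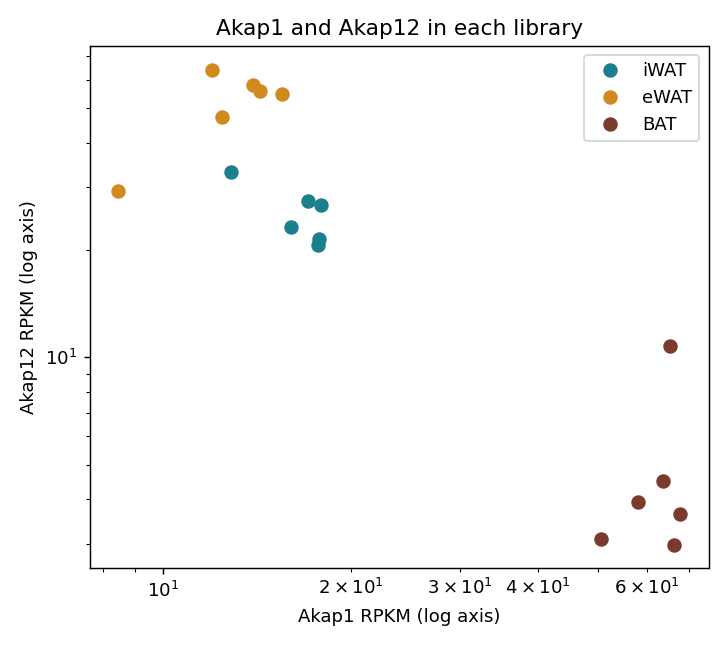
Akap12 RPKM against Akap1 RPKM in each of the 18 libraries, both on log axes. BAT libraries lie at 50.5 to 67.8 RPKM of Akap1 and 2.98 to 10.8 of Akap12, iWAT at 12.8 to 17.9 and 20.7 to 33.2, and eWAT at 8.46 to 15.5 and 29.3 to 64.1. RPKM in eWAT uses transcript lengths and that of the other depots merged gene lengths.

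Windows before a RefSeq start of both anchor genes are shown because these genes carry the widest depot differences.
Akap1 distal start, chr11:88725901-88726100, minus strand: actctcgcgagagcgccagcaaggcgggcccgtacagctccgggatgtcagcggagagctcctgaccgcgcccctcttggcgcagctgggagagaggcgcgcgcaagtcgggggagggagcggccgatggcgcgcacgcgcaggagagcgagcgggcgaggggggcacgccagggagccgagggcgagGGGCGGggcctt
Akap12, chr10:6080213-6080412, minus strand: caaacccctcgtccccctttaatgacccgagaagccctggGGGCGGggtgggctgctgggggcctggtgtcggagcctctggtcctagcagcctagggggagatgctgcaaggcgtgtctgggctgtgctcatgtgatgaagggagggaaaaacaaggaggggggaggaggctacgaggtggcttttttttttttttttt
Each holds a single GC box and no match to the cAMP response element, its core or the E-box. The Akap1 window printed, that of the distal RefSeq start, is 75.5% G and C, and that of Akap12 59.0%. Akap1 has another RefSeq start at position 88712817, where its most-read eWAT row begins; the window before it is 53.5% G and C and also holds 1 GC box and no other match. In eWAT, the Akap12 rows that span the large coding exon had 49.0 to 51.5 RPKM on average, whereas a single-exon row at the distal 5′ end (chr10:6078742-6080229) had 3 to 8 reads per library. The most-read Akap12 row carries the name of a rat Ensembl transcript. It begins at position 5998779, inside the gene, and not at the RefSeq start, 6080212, before which the printed window lies. The mouse RefSeq row held 5698 to 12953 reads per eWAT library, against 5701 to 12974 for the most-read row. Which start the Akap12 transcripts used was not tested.

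The second question was whether epididymal adipocytes differed from BAT in the same genes. In eWAT the files list transcripts instead of merged genes, so the most-read transcript row stood for each gene, and it covered from 26.7% (Pkig) to 99.0% (Prkaca) of the merged length. The same read can enter more than 1 of these rows, and the row definition follows the depot, so an effect of the row and of the depot cannot be told apart. Levels in eWAT are therefore given as RPM, read counts normalised to library size alone. Against BAT, 6 of the 10 genes passed, 3 higher in eWAT and 3 higher in BAT, where 70.3% of 18383 symbols passed (35.6% higher in eWAT and 34.7% higher in BAT). The BAT libraries are the ones used above, so this comparison is not independent of the previous one.

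Prkaca, at 79.3, 109 and 121 RPM in eWAT against 160 to 182 in BAT, was lower in eWAT by a log2 difference of -1.02 ± 0.10 (edgeR adjusted p = 6.37e-08). Prkar2b, at 442, 742 and 879 RPM, was lower by -0.88 ± 0.15 (adjusted p = 3.63e-05), with overlap at the BAT low of 859. Akap1, at 32.4, 50.5 and 59.5 RPM against 222 to 298, was lower by -2.81 ± 0.13 (adjusted p = 1.25e-12). Each of these 3 genes had its lowest eWAT value in eWAT 15, the library with the highest macrophage sum, and without it the differences were -0.95, -0.78 and -2.72. Akap12, at 174, 328 and 381 RPM against 22.6 to 81.6, was higher by 2.77 ± 0.26 (adjusted p = 2.30e-08). Its lowest eWAT value was also that of eWAT 15, and without that library the difference was 2.89. Pkig, at 11.5, 14.2 and 17.7 against 3.68 to 6.09, was higher by 1.30 ± 0.16 (adjusted p = 5.63e-07). Prkar2a, at 37.5, 42.9 and 47.2 against 21.8 to 33.3, was higher by 0.46 ± 0.09 (adjusted p = 1.81e-04), but that direction turned when the transcript with the highest RPKM was used (-0.26, adjusted p = 0.0170), and the call was lost with reads summed over transcripts (0.17, adjusted p = 0.0874). The 4 genes that did not pass had log2 differences of -0.18 (Prkacb, 95% interval -0.37 to 0.01), 0.17 (Prkar1a, -0.01 to 0.34), -0.52 (Prkar1b, -1.13 to 0.08) and 0.71 (Pkia, -0.41 to 1.82). Without BAT 12, Pkia passed (1.95, adjusted p = 6.37e-06), without eWAT 15 Prkacb did (-0.24, adjusted p = 0.0147), without eWAT 7 or BAT 8 Prkar1a did (0.21 and 0.20), and without eWAT 8 Prkar1b did (-0.71). The direction of Prkacb turned, past the threshold, with summed transcripts (1.70, adjusted p = 7.30e-12), with row length as an offset (0.81, adjusted p = 1.60e-07) and with limma on RPKM at a pseudocount of 0.1 (1.12, adjusted p = 3.54e-10). Prkar1a passed in the same direction with DESeq2 (0.18, adjusted p = 0.0362), without TMM factors (0.50, adjusted p = 2.00e-05), with the transcript of highest RPKM (0.38), with the length offset (0.80), with limma (1.12) and with summed transcripts (1.68).

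The third question was whether iWAT and eWAT adipocytes differed. Here 3 of the 10 genes passed, against 25.6% of 18383 symbols (13.4% higher in iWAT and 12.3% higher in eWAT). Akap1 was higher in iWAT by 0.59 ± 0.12 (edgeR adjusted p = 0.00158), and Prkaca by 0.43 ± 0.10 (adjusted p = 0.00516). Pkig was higher in eWAT by 1.39-fold (log2 difference -0.47 ± 0.15, adjusted p = 0.0281). Akap12 had a log2 difference of -0.65 (95% interval -1.16 to -0.14, adjusted p = 0.0576), and passed without eWAT 15 (-0.76) or without iWAT 14 (-0.75). The Pkig call was lost without iWAT 7, 11, 13 or 15 or without eWAT 13 or 15 (adjusted p from 0.0519 to 0.0662). These calls turned on the row chosen for eWAT. With reads summed over all transcripts of a gene, the Akap1 difference became -0.34 (edgeR adjusted p = 0.0198). In that setting 7 of the 10 genes passed, and so did 13605 of all 19043 symbols. With the transcript of highest RPKM the Prkaca difference fell to 0.02.

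Ratios between genes were also compared within libraries of eWAT. There, Prkar2b held 73.5% ± 6.06 of the regulatory RPKM and Prkaca 77.5% ± 4.88 of the catalytic RPKM (SD, n = 6), both with their lowest value in eWAT 15. Of the 8 ratios examined, 6 passed for iWAT against BAT, 7 for eWAT against BAT and 6 for iWAT against eWAT at an adjusted p of 0.05 in the exact permutation test. With read counts in place of RPKM these numbers were 6, 6 and 5. The inhibitors were the clearest case of dependence on row length: Pkia was 0.401 to 0.639 of Pkig per length in eWAT, where the Pkig row was short, and the log2 difference from BAT was -1.60 by RPKM and 0.28 by read counts.

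Other genes of the pathway, from lists chosen with earlier results known, showed a mixture of directions. Of 27 other anchor genes, 23 could be tested between iWAT and BAT; 8 were higher in iWAT, 9 were higher in BAT and 6 did not pass, with a median log2 difference of 0.07, where 67.8% of all symbols passed and the median was 0.01. Those higher in iWAT included Rab32, a small GTPase that anchors PKA at mitochondria (15.2 ± 1.35 against 1.04 ± 0.20 RPKM, SD, log2 difference 3.60), Nbea, which encodes neurobeachin (1.81), and Myrip, which encodes a myosin and Rab interacting protein (1.46). Those higher in BAT included Cbfa2t3 (-2.79), Synm, which encodes the intermediate filament protein synemin (-1.95), and Opa1, a mitochondrial fusion GTPase that also anchors PKA at lipid droplets (-1.11). Synm varied widely between the BAT libraries (3.80 ± 3.16 RPKM, against 1.19 ± 0.59 in iWAT, SD). The mitochondrial anchors Akap1 and Rab32 thus had opposite orders between the depots. Akap2 overlaps a fused Akap2 and Palm2 row and is uncertain.

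Among 7 other regulators, 3 could be tested: Pja2, a ubiquitin ligase that targets regulatory subunits, was higher in iWAT (log2 difference 0.72, adjusted p = 5.41e-05), as was Pdpk1, the kinase of the activation loop of catalytic subunits (0.51, adjusted p = 3.83e-04), and Prkx did not pass. Of 16 PKA substrate genes, 6 were higher in iWAT, 5 were higher in BAT and 5 did not pass, with a median log2 difference of -0.01. The lipolytic substrates Plin1 (521 ± 43.1 against 230.2 ± 15.9 RPKM, log2 difference 0.91) and Lipe, the gene of hormone-sensitive lipase (318 ± 37.3 against 165 ± 11.6 RPKM, 0.67), were higher in iWAT, as was the actin regulator gene Vasp (0.78). Plin5, the perilipin of oxidative tissues, was higher in BAT (56.9 ± 7.54 against 4.76 ± 1.05 RPKM, -3.85), as were the calcium channel gene Itpr1 (-0.90) and the kinase gene Gsk3a (-0.69). Of 13 other cAMP effector genes, 5 could be tested; 2 were higher in iWAT, 1 was higher in BAT and none of those 3 reached an RPKM of 1, while the exchange factor gene Rapgef3 did not pass (-0.01). In eWAT against BAT, where 70.3% of all symbols passed, the counts (higher, lower, not passed) were 9, 9 and 5 for anchors, 4, 0 and 0 for regulators, 2, 6 and 8 for substrates and 2, 1 and 2 for effectors. Between iWAT and eWAT, where 25.6% of all symbols passed, they were 1, 4 and 18, then 0, 1 and 3, then 4, 0 and 12, and then 1, 1 and 3.

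For both genes with a log2 difference of at least 1 between iWAT and BAT, the nearest profiles among 7002 genes were sought over the 12 libraries, by the root mean square difference of centred log2(RPKM + 0.1) values. The nearest to Akap1 were D4Wsu53e (0.15) and Ndufs1, which encodes a subunit of respiratory complex I (0.17). The nearest to Akap12 were Cldn15, a claudin gene (0.22), and Palm, the paralemmin gene (0.25). These distances are descriptions over 12 libraries that share the depot split.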

How the data were processed

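The deposited files hold, for each of 18 libraries, read counts and RPKM values per row that the authors made with the Genomatix Genome Analyzer on mm9. The submitters' processing notes also name cutadapt 1.16 and HISAT2 2.1.0. Rows are merged genes in the iWAT and BAT tables and single transcripts in those of eWAT. The 10 genes and all gene lists were chosen with earlier results of these data known. Deposited counts were tested with edgeR 4.0.16 (quasi-likelihood, TMM scaling, at least 10 reads in at least 6 samples, Benjamini-Hochberg adjustment over all symbols). The iWAT and BAT libraries were fitted alone, and all 18 together for comparisons with eWAT. Members counted as changed had an adjusted p under 0.05. Ratios between genes used RPKM with a pseudocount of 0.01 and exact two-sided permutation tests adjusted over 24 tests (scipy 1.17.1). Named genes were all 10 members; in each other list up to 3 genes per direction with the largest log2 difference between iWAT and BAT past the threshold whose mean RPKM reached 1 in the depot with more; and for members with an absolute log2 difference of at least 1, the nearest profiles (mean RPKM of at least 5). Rapgef3, Prkx, Akap2, Dpt and Cldn5 were named after their values were seen. Replicate files differed beyond sampling noise. Simulated counts with known differences were run through the edgeR fits only. The simulation held no difference in row definition between depots, so it cannot speak to that. Promoter windows are the 200 bases before RefSeq transcript starts listed in the files, read from the genome of the same build. Alternatives were DESeq2 1.42.0, limma 3.58.1 on log2 RPKM, no TMM, other filters, other eWAT rows, a replicate block and leaving out libraries.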

Additional observations from a re-analysis of the deposited data

Results flagged for a closer look

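Over the 10 genes and the 8 ratios in each of the 3 depots, 54 sets of 6 libraries were examined for a single library far from the others, and 7 were picked out, where chance picks about 1 in 20 sets. The ratios are built from the values of the same genes, so the sets are not independent and 1 library can be picked out more than once. The number picked out can therefore not be set directly against that rate. In BAT 12, Pkia was 12.3 RPKM against 0.538 to 2.29 in the other BAT libraries, and the log2 ratio of inhibitors to catalytic genes was -2.51 against -5.67 to -4.55. In BAT 11, Akap12 was 10.8 RPKM against 2.98 to 4.50, and the log2 ratio of Akap12 to Akap1 was -2.60 against -4.47 to -3.82. In iWAT 14, Akap1 was 12.8 RPKM against 16.1 to 17.9. In eWAT 15, the log2 ratio of Prkar2b to Prkar2a was 3.49 against 4.30 to 4.63, and that of type I to type II genes was -1.05 against -2.17 to -1.77. Of these libraries, BAT 12 also held the highest skeletal muscle sum of its depot, eWAT 15 the highest macrophage sum, and BAT 11 and iWAT 14 the highest endothelial sums. The part of those transcripts in the values was not tested.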

How the results depend on the processing

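For iWAT against BAT, the number of genes past the threshold was 7 with DESeq2, all 18 samples, limma or summed rows, 6 without TMM or without a filter, 6 of 9 tested with a mean RPKM of at least 1, and 6 to 8 when libraries were left out singly. Requiring an absolute log2 difference of 1 left 2 genes, and 6122 of all 19046 symbols. Without TMM, 4 genes were higher in iWAT and 2 higher in BAT, against 3 and 4 in the main fit. With limma at either pseudocount, 5 were higher in iWAT and 2 higher in BAT. The limma calls included Pkia and Prkar1a but not Prkar1b or Prkar2b. Of all symbols, 8830 were then higher in iWAT and 4555 higher in BAT without TMM, and 8822 and 4675 with limma at a pseudocount of 0.1. For eWAT against BAT the count was 6 to 7 with single libraries left out, and 10 with limma at a pseudocount of 1. In that limma setting 14642 of all 18383 symbols passed. For iWAT against eWAT it was 2 to 4 with single libraries left out, 0 at an absolute log2 difference of 1, 8 with limma at either pseudocount, 5 with the highest-RPKM transcript, 7 with summed transcripts and 8 with row length as an offset. The number of all symbols past the threshold moved too. It was 9642 and 9492 of 18383 with limma (pseudocounts 0.1 and 1) and 10523 of 18266 with the highest-RPKM transcript. Summed transcripts gave 13605 of 19043 and the offset 9665 of 18383, against 25.6% in the main fit. The ratio counts were 6 to 7, 7 to 8 and 6 to 7 with single libraries left out.

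Directions turned as follows, with the cause not tested. Prkacb, iWAT against BAT, was 0.16 without TMM and 0.16 and 0.14 with limma (pseudocounts 0.1 and 1). Against BAT in eWAT it was 0.15 without TMM, 1.12 and 1.02 with limma, 1.70 with summed transcripts and 0.81 with the length offset, and between iWAT and eWAT -0.96 and -0.88 with limma, -0.091 with the highest-RPKM transcript, -1.83 with summed transcripts, -0.97 with the offset and -0.026 to 0.090 with single libraries left out. Prkar1b, eWAT against BAT, was 0.51 and 0.20 with limma, 0.27 with summed transcripts and 0.35 with the offset. Prkar2a was -0.26 against BAT with the highest-RPKM transcript. Between iWAT and eWAT, Prkar2a was -0.028 with the replicate block, -0.69 and -0.62 with limma, -0.68 with the offset and -0.022 to 0.051 with single libraries left out, Prkar2b was -0.022 with the highest-RPKM transcript and -0.081 with summed transcripts, Pkia was -0.12 with the replicate block, and Akap1 was -0.34 with summed transcripts. The log2 ratio of Pkia to Pkig, eWAT against BAT, was 0.28 by read counts, and that of Prkar1b to Prkar1a, iWAT against eWAT, 0.012 with summed transcripts.

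The labels do not say whether equal title numbers mark the same mouse, and libraries with equal numbers did not all deviate together: correlations of same-numbered deviations ran from -0.04 to 0.13 (iWAT and BAT), -0.16 to 0.06 (eWAT and BAT) and -0.33 to 0.14 (iWAT and eWAT). With the replicate block, 7, 7 and 2 genes passed, and of all symbols 11345 of 19046, 11400 of 18383 and 3154 of 18383. Pkia passed for eWAT against BAT (1.52, adjusted p = 0.0164), and Pkig no longer did for iWAT against eWAT (adjusted p = 0.0590). In the blocked ratio tests 0 of 8 passed in each comparison, since 4 or 5 pairs cannot reach the threshold in an exact test. None of the 10 genes had a row shared by both file types, so that alternative gave no value. At 17 to 84 reads per library, Prkar1b is limited by depth.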
